A study of Homo sapiens with 10 samples.

Results

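Neuronal splicing and RNA-binding regulators were described as 10 genes: RBFOX1, RBFOX2 and RBFOX3, NOVA1 and NOVA2, ELAVL2, ELAVL3 and ELAVL4, and PTBP1 and PTBP2. They were taken by symbol from the 30357 named genes of the deposited gene tables. All 10 were present in all 10 libraries and all 10 passed the filter on low counts. The level of PTBP1 relative to PTBP2 was also set beside COL1A1, a collagen gene of fibroblasts and other mesenchymal cells.

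RUES2 is an established human embryonic stem cell line, used here as RUES2-Avil:tdT, a line named for a tdT reporter and for AVIL, a gene of sensory neurons. The cells were differentiated by 1 of 3 protocols, named for the nociceptor (pain), the mechanoreceptor (touch) and the proprioceptor (muscle stretch), and bulk RNA was sequenced at day 60 in vitro. There were 4 nociceptor libraries, 3 mechanoreceptor libraries and 3 proprioceptor libraries, all of the 1 reporter line and with no untreated control. Whether the cells were sorted for the reporter is not given in the sources used here. The titles call the libraries biological replicates without saying what was separate, so the tests take in only the scatter among these samples, and that scatter may be technical.

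RNA-binding proteins decide which exons a transcript keeps and how long it lasts. RBFOX proteins bind GCATG motifs and NOVA proteins bind YCAY motifs near alternative exons, and the neuronal ELAVL (Hu) proteins bind U-rich stretches in pre-mRNA and mRNA. PTBP1 represses many neuronal exons in progenitors, glia and other non-neuronal cells. One of its targets is an exon of its own relative PTBP2: when that exon is skipped the PTBP2 transcript is degraded, and when PTBP1 is lost during neuronal differentiation PTBP2 protein appears.

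The exons on which these proteins act, and which carry the results below, are shown with the exon in capitals and 15 flanking bases of the spliced transcript in lower case, from GENCODE V29 transcripts of GRCh38 (for RBFOX2, the transcript RBFOX2-201). The first pair is the 34-nt exon of PTBP2 at chr1:96806419-96806452 (plus strand, exon 10 of 14) and that of PTBP1 at chr19:807869-807902 (plus strand, exon 11 of 15). Both are internal coding exons whose skipping shifts the reading frame, and 25 of their 34 positions are identical.
PTBP2 exon: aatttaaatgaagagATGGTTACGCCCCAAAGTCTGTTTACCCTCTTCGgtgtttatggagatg
PTBP1 exon: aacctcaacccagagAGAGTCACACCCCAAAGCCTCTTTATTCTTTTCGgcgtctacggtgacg

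PKM, the glycolytic enzyme pyruvate kinase, uses 1 of 2 mutually exclusive exons. PTBP1 is known to repress the M1 exon, which leaves M2, the form of progenitors and many dividing cells. The M2 exon lies at chr15:72202454-72202620 and the M1 exon at chr15:72203022-72203188, both on the minus strand, and 105 of their 167 positions are identical.
M2 exon: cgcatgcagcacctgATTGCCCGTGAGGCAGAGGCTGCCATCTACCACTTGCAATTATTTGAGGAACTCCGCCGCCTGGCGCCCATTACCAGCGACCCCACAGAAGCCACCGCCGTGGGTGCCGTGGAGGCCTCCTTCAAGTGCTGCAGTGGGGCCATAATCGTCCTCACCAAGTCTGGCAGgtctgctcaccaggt
M1 exon: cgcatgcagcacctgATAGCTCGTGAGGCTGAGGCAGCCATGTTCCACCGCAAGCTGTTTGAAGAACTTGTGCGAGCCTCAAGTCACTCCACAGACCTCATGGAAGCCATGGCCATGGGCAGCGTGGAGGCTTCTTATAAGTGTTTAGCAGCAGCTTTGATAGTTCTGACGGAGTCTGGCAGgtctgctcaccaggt

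CLTA and CLTB encode the clathrin light chains of coated vesicles, and each has a 54-nt exon known for its use in neurons. The CLTB exon lies at chr5:176396479-176396532 (minus strand, exon 5 of 6) and the CLTA exon at chr9:36209267-36209320 (plus strand, exon 5 of 7), with 35 of 54 positions identical.
CLTB exon: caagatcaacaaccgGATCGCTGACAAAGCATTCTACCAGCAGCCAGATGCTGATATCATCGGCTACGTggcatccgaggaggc
CLTA exon: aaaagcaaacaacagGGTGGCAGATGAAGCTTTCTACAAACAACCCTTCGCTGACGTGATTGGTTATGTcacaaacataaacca

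The RBFOX genes themselves carry a 93-nt exon that encodes part of the RNA-recognition domain. It lies at chr16:7595549-7595641 in RBFOX1 (plus strand), chr22:35768257-35768349 in RBFOX2 (minus strand) and chr17:79103162-79103254 in RBFOX3 (minus strand). The RBFOX1 and RBFOX2 exons share 87 of 93 positions, and each shares 68 with RBFOX3.
RBFOX1 exon: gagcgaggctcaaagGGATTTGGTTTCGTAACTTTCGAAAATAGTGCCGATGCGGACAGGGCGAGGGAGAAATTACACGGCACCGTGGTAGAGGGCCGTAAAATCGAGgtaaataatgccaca
RBFOX2 exon: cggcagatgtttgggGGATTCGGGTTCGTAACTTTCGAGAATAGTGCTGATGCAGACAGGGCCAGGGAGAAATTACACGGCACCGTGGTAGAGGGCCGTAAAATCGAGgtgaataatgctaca
RBFOX3 exon: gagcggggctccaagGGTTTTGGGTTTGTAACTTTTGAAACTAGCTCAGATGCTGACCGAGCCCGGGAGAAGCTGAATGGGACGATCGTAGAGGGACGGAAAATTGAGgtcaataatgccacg

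The libraries held between 27891186 and 44541262 counts, so counting error was small for every gene described here, the lowest of which, NOVA2, had at least 62 counts. As bulk RNA, a lower level cannot be told apart from fewer cells of a type. The sensory neuron genes ISL1 (104 to 417 TPM) and POU4F1 (1.60 to 18.01 TPM) were detected in every library, and AVIL lay at 1.17 to 3.55 TPM. The summed TPM of 8 autonomic neuron genes was 33.1 to 465, 121 to 762 and 15.8 to 455 in the nociceptor, mechanoreceptor and proprioceptor protocols. The summed TPM of 16 mesenchymal genes was 1156 to 4502 in nociceptor, 592 to 2181 in mechanoreceptor and 495 to 2078 in proprioceptor libraries, and that of 12 Schwann and satellite glia genes was 1211 to 6841, 500.4 to 2695 and 272 to 3245. COL1A1 was at 366 TPM or above in nociceptor libraries 1, 2 and 3, mechanoreceptor library 3 and proprioceptor library 2, and at most 17.0 TPM in the other 5. In those 5, most of the mesenchymal sum came from 1 gene of the list, THY1, which lay at 400 to 854 TPM over all libraries. THY1 held 841 of 1156 TPM in nociceptor library 4, and 508 of 592 and 724 of 806 in mechanoreceptor libraries 1 and 2. In proprioceptor libraries 1 and 3 it held 459 of 495 and 432 of 592. The lower ends of the mesenchymal sums thus rest mainly on THY1. Proprioceptor library 1 stood apart: the 25% of genes with the longest transcripts lay 1.14 lower on the log2 scale than the 25% with the shortest, each against its mean over the libraries, and 12066 genes reached 1 TPM, against 13174 to 14160 elsewhere. The same difference lay between -0.33 and 0.68 in the other 9 libraries.

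TPM is a share of all transcripts, scaled for transcript length, and so allows levels of different genes to be compared. On this scale RBFOX2 had the highest level of the 10 genes in all 10 libraries and NOVA2 the lowest in all 10. By mean TPM over the libraries the order was RBFOX2 (270.1), ELAVL2 (101), ELAVL4 (61.7), PTBP2 (55.7), RBFOX3 (24.3), RBFOX1 (22.1), PTBP1 (18.02), NOVA1 (7.14), ELAVL3 (5.92) and NOVA2 (1.57). Not every neighbour in that order was separated. ELAVL4 was above PTBP2 in 4 of 10 libraries, RBFOX3 above RBFOX1 in 6, and PTBP1 above NOVA1 in 5, whereas RBFOX2 exceeded ELAVL2, PTBP2 exceeded RBFOX3 and ELAVL3 exceeded NOVA2 in all 10. PTBP1 moved the most within the order, between rank 2 and rank 9, and spanned a 31.5-fold range of TPM; RBFOX2 spanned 2.56-fold.

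**Figure D1:**
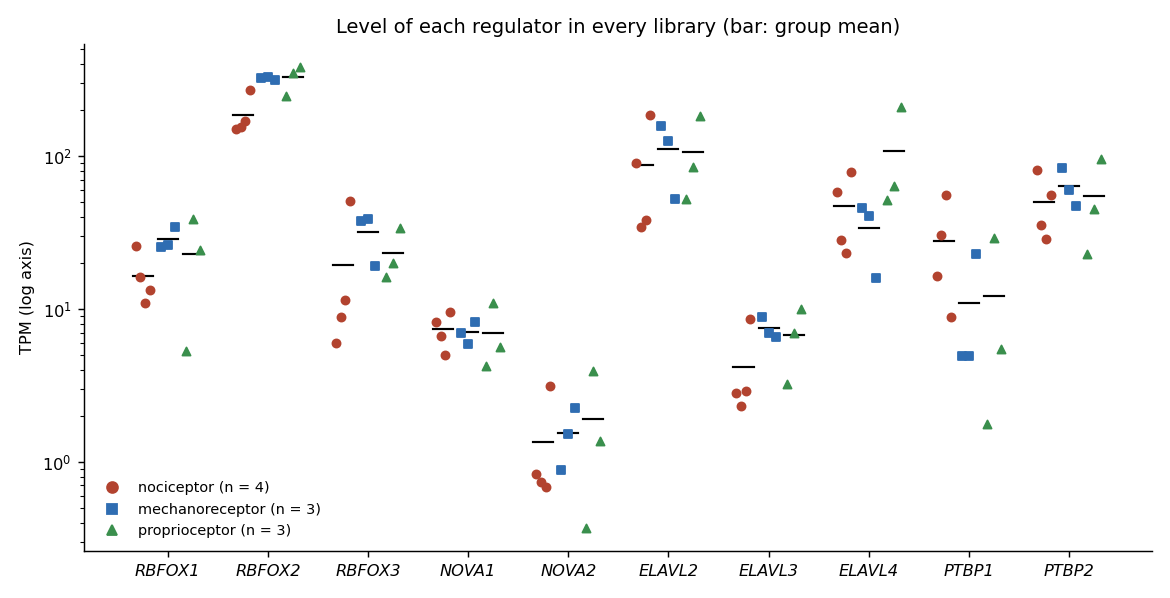
TPM of the 10 regulators on a log axis, 1 point per library, with a bar at the mean of each protocol (4 nociceptor, 3 mechanoreceptor and 3 proprioceptor libraries). RBFOX2 lies between 150 and 384 TPM in every library, whereas PTBP1 runs from 1.76 to 55.5 TPM with all 3 protocols overlapping.

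No regulator was called between protocols. Of 16130 genes tested with edgeR, 0 passed an adjusted p under 0.05 in any of the 3 contrasts (0% called in each, and 0% by the F test over the 3 protocols), and so 0 of the 10 regulators did. DESeq2 called 0.781% of genes for mechanoreceptor minus nociceptor, 0.193% for proprioceptor minus nociceptor and 0% for proprioceptor minus mechanoreceptor, again with 0 of 10 regulators. At an unadjusted p under 0.05, 8.18%, 6.19% and 1.49% of all genes passed in these contrasts, against 1, 2 and 1 regulators. The median log2 fold change of the 10 was 0.46, 0.49 and 0.04, beside 0.00, 0.03 and 0.04 over all genes tested. Of the 10, 7, 9 and 6 were higher in the first-named protocol, beside 50.1%, 52.2% and 53.7% of all genes. A list of 15 pan-neuronal genes had 15, 15 and 9 higher, with medians of 0.43, 0.59 and 0.12, so the direction is not particular to the regulators. Groups did not overlap in TPM for RBFOX2 alone among the 10, higher in mechanoreceptor than nociceptor libraries (8.05% of all genes), and for ELAVL4 alone, higher in proprioceptor than mechanoreceptor libraries (0.868% of all genes). None of the 10 separated in the other directions, where 1.84% (mechanoreceptor below nociceptor), 1.49% and 1.45% (proprioceptor above and below nociceptor) and 5.02% (proprioceptor below mechanoreceptor) of all genes did.

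**Figure D2:**
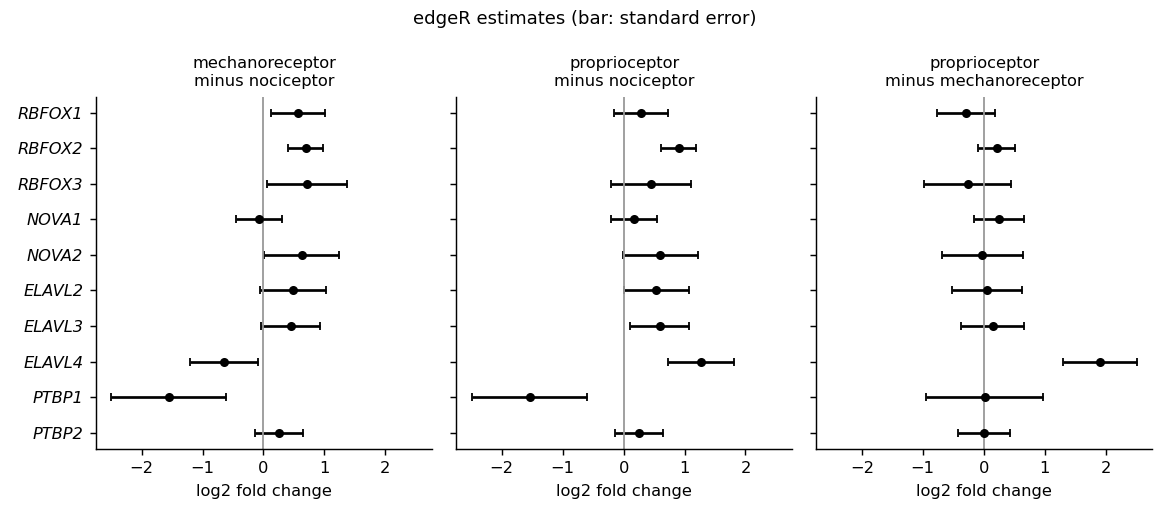
log2 fold change of each regulator in the 3 contrasts of protocols, as edgeR estimated it over 10 libraries, with bars of 1 standard error. ELAVL4 in proprioceptor minus mechanoreceptor (1.91 ± 0.61) and PTBP1 in both contrasts with the nociceptor protocol (-1.56 and -1.54) lie farthest from 0, and none passed the adjusted threshold.

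RBFOX2, the broadly expressed member of the RBFOX family, measured 150, 155, 169 and 272 TPM in nociceptor libraries 1 to 4. It measured 324, 329 and 317 TPM in mechanoreceptor libraries and 248, 353 and 384 TPM in proprioceptor libraries. The nociceptor libraries were the low ones, except that library 4 lay above proprioceptor library 1. RBFOX2 was higher than in the nociceptor libraries by 0.70 ± 0.29 (SE) on the log2 scale in the mechanoreceptor libraries and by 0.91 ± 0.29 in proprioceptor libraries (edgeR, adjusted p = 0.598 and 0.665). Without proprioceptor library 1 the latter was 0.86. Without the 5 libraries of high COL1A1, which leaves 1 nociceptor library assumed to vary like the others, the estimates were 0.15 ± 0.61 and 0.47 ± 0.62. The gene spans chromosome 22 from 35738736 to 36028824 (RefSeq, GRCh38.p14).

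Beside 15 pan-neuronal genes, RBFOX2 had the smallest spread of the 10. Its log2 level minus the mean of those genes, with 0.1 added to each TPM, spanned 0.60 over the 10 libraries (SD 0.19), whereas its log2 TPM had an SD of 0.51. On that scale all 3 proprioceptor libraries (-0.44, -0.50 and -0.48) lay above all 4 nociceptor libraries (-1.03, -0.77, -0.61 and -0.82). The difference was 0.33 (exact permutation test, p = 0.0571, adjusted p = 0.424 over all 16130 genes), and 0.198% of all genes separated in this way. Summed over the family, RBFOX2 held between 80.8% and 92.0% of RBFOX TPM in every library.

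RBFOX1, a neuronal and muscle member, measured 25.7, 16.2, 11.01 and 13.3 TPM in nociceptor, 25.5, 26.1 and 34.3 TPM in mechanoreceptor and 5.31, 39.0 and 24.4 TPM in proprioceptor libraries. Proprioceptor library 1 was its lowest value and proprioceptor library 2 its highest, so that 1 protocol held the whole range. Its log2 fold change was 0.57 ± 0.45 (mechanoreceptor minus nociceptor) and 0.28 ± 0.45 (proprioceptor minus nociceptor); the latter was 0.64 without proprioceptor library 1 and -0.25 without library 2. RBFOX3, which encodes the neuronal nuclear antigen NeuN, measured 6.01, 8.83, 11.4 and 51.2 TPM in nociceptor libraries. The fourth of these was its highest value in the study, above the mechanoreceptor (37.6, 39.0 and 19.1 TPM) and the proprioceptor (16.3, 19.9 and 33.9 TPM) libraries. Its log2 fold changes against the nociceptor protocol were 0.71 ± 0.66 and 0.45 ± 0.66, and they were -0.39 and -0.63 without the 5 libraries of high COL1A1. Without nociceptor library 4 they were 1.82 and 1.56, and without nociceptor library 1 they were 0.36 and 0.12.

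The RNA-recognition exon printed above was kept in nearly all RBFOX1 and most RBFOX3 TPM of the matched transcripts that span it. Those transcripts held 57.9% of RBFOX1 and 50.6% of RBFOX3 TPM over the 10 libraries. Inclusion is the TPM of transcripts with the exon as a percent of those that span it, and it was 98.9% to 100% in RBFOX1 and 77.7% to 95.4% in RBFOX3. For RBFOX2, 0 of the matched transcripts span the exon without it, so no inclusion was computed. The matched transcripts held 34.3% to 40.8% of RBFOX2 TPM, 79.9% to 91.6% of RBFOX1 and 63.2% to 79.9% of RBFOX3, and the remaining transcripts were not analysed here. Among RBFOX1 transcripts RBFOX1-207 was the main one, at 15.9% to 45.5% of the gene's TPM, and its share was 31.5% to 45.5% in mechanoreceptor libraries.

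NOVA1 and NOVA2, the RNA-binding antigens of a paraneoplastic motor disorder, were low. NOVA1 measured 8.20, 6.69, 5.02 and 9.55 TPM in nociceptor, 6.97, 5.87 and 8.23 TPM in mechanoreceptor and 4.22, 10.97 and 5.65 TPM in proprioceptor libraries. The 3 protocols overlapped throughout, and the log2 fold changes were -0.08 ± 0.38 and 0.17 ± 0.38 against the nociceptor protocol. Relative to the pan-neuronal genes, however, NOVA1 was 0.69 lower on the log2 scale in the mechanoreceptor libraries (-5.99, -6.46 and -5.97) than in the nociceptor libraries (-5.21, -5.28, -5.65 and -5.64), with no overlap. The exact permutation p of 0.0286 is the smallest that 4 against 3 libraries can give (adjusted p = 0.450 over all genes), and 9.06% of all genes separated in this way. The 15 pan-neuronal genes themselves all had higher estimates in mechanoreceptor than nociceptor libraries (median log2 fold change 0.43), and their summed TPM was 7116 to 17273 in the latter and 14126 to 17721 in the former. NOVA1 held 73.6% to 92.0% of the summed NOVA TPM.

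NOVA2, the member known from cortical neurons, measured 0.835, 0.737, 0.683 and 3.15 TPM in nociceptor, 0.887, 1.53 and 2.25 TPM in mechanoreceptor and 0.369, 3.94 and 1.37 TPM in proprioceptor libraries. Nociceptor library 4 and proprioceptor library 2 were the high ones, and every protocol had a library below 1 TPM. The log2 fold changes were 0.63 ± 0.62 and 0.60 ± 0.62 against the nociceptor protocol, and the latter was 0.94 without proprioceptor library 1 and -0.09 without library 2. The former was 0.09 without mechanoreceptor library 3, and both were higher without nociceptor library 4, at 1.23 and 1.21.

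ELAVL2, ELAVL3 and ELAVL4 encode the neuronal Hu proteins, which stabilise mRNAs and act on splicing. ELAVL2 measured 90.3, 34.5, 38.2 and 187 TPM in nociceptor, 157, 125 and 52.3 TPM in mechanoreceptor and 52.2, 85.2 and 184 TPM in proprioceptor libraries. High and low libraries occurred in every protocol, and the log2 fold changes against the nociceptor protocol were 0.48 ± 0.54 and 0.54 ± 0.54. They were 0.91 and 0.97 without nociceptor library 4, whereas the first was 0.046 without mechanoreceptor library 1 and the second 0.045 without proprioceptor library 3. ELAVL3 was the least abundant of the 3, at 2.83, 2.33, 2.90 and 8.57 TPM, then 8.88, 6.95 and 6.54 TPM, then 3.22, 6.97 and 10.0 TPM in the same order of protocols. Nociceptor libraries 1 to 3 lay below all others, and the log2 fold changes were 0.44 ± 0.48 and 0.59 ± 0.48, or 1.15 and 1.30 without nociceptor library 4 and 0.17 and 0.33 without nociceptor library 1.

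ELAVL4 had the largest difference between the mechanoreceptor and proprioceptor protocols among the 10. It measured 45.7, 40.8 and 15.9 TPM in mechanoreceptor libraries and 51.8, 64.1 and 210.3 TPM in proprioceptor libraries, with 58.3, 28.1, 23.3 and 78.4 TPM in nociceptor libraries. All 3 proprioceptor libraries lay above all 3 mechanoreceptor libraries, although the closest 2 values were 45.7 and 51.8 TPM. The log2 fold change was 1.91 ± 0.61 (edgeR, adjusted p = 1.00). It was 1.24 ± 0.58 without proprioceptor library 3, 1.59 without mechanoreceptor library 3 and 1.96 ± 0.55 without the 5 libraries of high COL1A1. Relative to the pan-neuronal genes the difference was 1.67 (exact permutation test, p = 0.1, the smallest possible with 3 against 3 libraries, adjusted p = 1.00 over all genes), and 1.81% of all genes separated in this way. Against the nociceptor protocol ELAVL4 was 0.64 ± 0.56 lower in the mechanoreceptor and 1.27 ± 0.54 higher in the proprioceptor libraries (edgeR, adjusted p = 0.722 and 0.665). The former was -0.31 without nociceptor library 4, and the latter 0.53 without proprioceptor library 3.

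The make-up of the neuronal ELAVL transcripts differed in the same direction. ELAVL4 made up 38.5%, 43.3%, 36.2% and 28.6% of their summed TPM in nociceptor, 21.6%, 23.6% and 21.3% in mechanoreceptor and 48.3%, 41.0% and 52.1% in proprioceptor libraries. The 3 mechanoreceptor values were the lowest of the 10. Proprioceptor library 1, with its low signal of long transcripts, was at 48.3%, and mechanoreceptor library 3, with its high COL1A1, at 21.3%. The part of either trait in this share was not tested. The share is drawn from the same TPM values as the levels above, and no background over other genes was computed for it. ELAVL2 held more than ELAVL4 in 9 of 10 libraries, at 45.4% to 74.2%, and ELAVL3 1.87% to 8.76%.

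**Figure D3:**
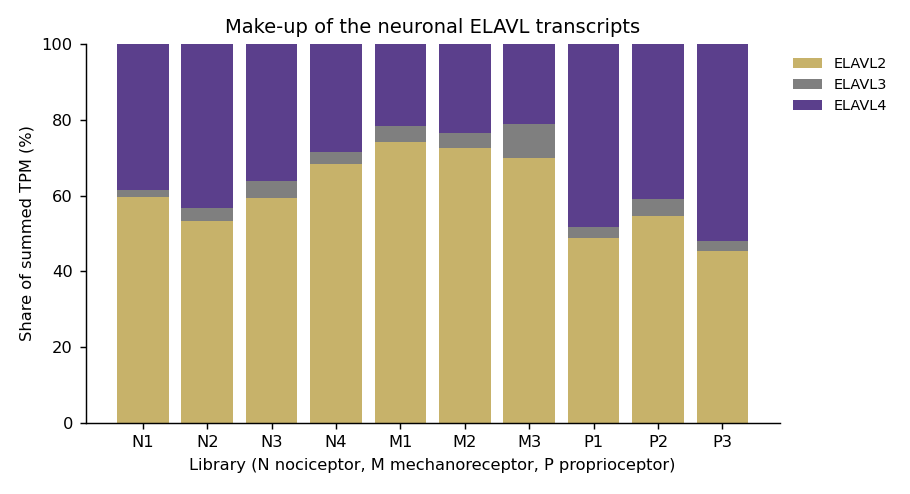
Share of the summed TPM of ELAVL2, ELAVL3 and ELAVL4 that each gene holds, 1 stacked bar per library (N nociceptor, M mechanoreceptor, P proprioceptor, numbered as in the labels). ELAVL4 takes 21.3% to 23.6% in mechanoreceptor libraries, 28.6% to 43.3% in nociceptor libraries and 41.0% to 52.1% in proprioceptor libraries.

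PTBP1 (chromosome 19, 797452 to 812312), the non-neuronal splicing repressor, had the widest range of the 10. It measured 16.6, 30.3, 55.5 and 8.84 TPM in nociceptor, 4.90, 4.91 and 22.8 TPM in mechanoreceptor and 1.76, 29.1 and 5.51 TPM in proprioceptor libraries. Every protocol held both high and low libraries, and the high ones were those of high COL1A1. PTBP1 was the 1 regulator of 10 whose TPM did not overlap between the 5 libraries of high and the 5 of low COL1A1. Of all genes tested, 11.1% were likewise higher and 2.85% lower without overlap, so 1 of 10 is near the background. The log2 fold changes against the nociceptor protocol were -1.56 ± 0.94 and -1.54 ± 0.94 (edgeR, adjusted p = 0.634 and 0.666). Leaving out 1 library moved them between -2.82 (without mechanoreceptor library 3) and -1.01 (without nociceptor library 3), and between -3.17 (without proprioceptor library 2) and -0.99 (without nociceptor library 3). With the mean level of the mesenchymal list as a covariate, the mechanoreceptor minus nociceptor value was 0.07, while the proprioceptor minus nociceptor value stayed negative. PTBP2 (chromosome 1, 96721784 to 96823739), its neuronal relative, measured 81.3, 35.4, 28.6 and 55.8 TPM, then 83.3, 60.5 and 47.1 TPM, then 23.1, 44.9 and 96.7 TPM, with log2 fold changes of 0.26 ± 0.40 and 0.25 ± 0.40.

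Set in order of COL1A1, the PTBP1 to PTBP2 ratio of TPM was 0.0763 (proprioceptor library 1, COL1A1 at 1.77 TPM), 0.0812 (mechanoreceptor library 2, 2.88 TPM), 0.0589 (mechanoreceptor library 1, 3.26 TPM), 0.0570 (proprioceptor library 3, 7.81 TPM) and 0.158 (nociceptor library 4, 17.0 TPM). Past a 21.6-fold gap in COL1A1 it was 0.484 (mechanoreceptor library 3, 366 TPM), 0.204 (nociceptor library 1, 392 TPM), 0.857 (nociceptor library 2, 506 TPM), 0.648 (proprioceptor library 2, 536 TPM) and 1.94 (nociceptor library 3, 1984 TPM). PTBP1 exceeded PTBP2 in nociceptor library 3 alone. The 5 libraries below the gap thus held ratios of 0.0570 to 0.158 and the 5 above it ratios of 0.204 to 1.94, and each side held libraries of all 3 protocols. Because the libraries fall into 2 clusters of 5 along COL1A1, no correlation was computed. The 2 sets are drawn from the measured values and not from the labels, so they were not tested against each other. S100B, a Schwann cell and glial gene, was 3.12 to 238 TPM below the gap and 958 to 2295 TPM above it, so mesenchymal and glial genes cannot be told apart in this order. The summed TPM of 12 proliferation genes was 92.5 to 307 in nociceptor, 69.4 to 84.9 in mechanoreceptor and 61.3 to 157 in proprioceptor libraries, and that of 6 neural progenitor genes was 281 to 2359, 65.8 to 714 and 82.8 to 914. The progenitor sum also split at the gap, at 65.8 to 281 below it and 714 to 2359 above it. Of that list, SOX1 was at most 0.0291 TPM and SOX2 at most 9.56 TPM. The proliferation sum overlapped, at 61.3 to 92.5 below and 84.9 to 307 above. The part of proliferation and progenitor genes in the level of PTBP1 was not tested.

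**Figure D4:**
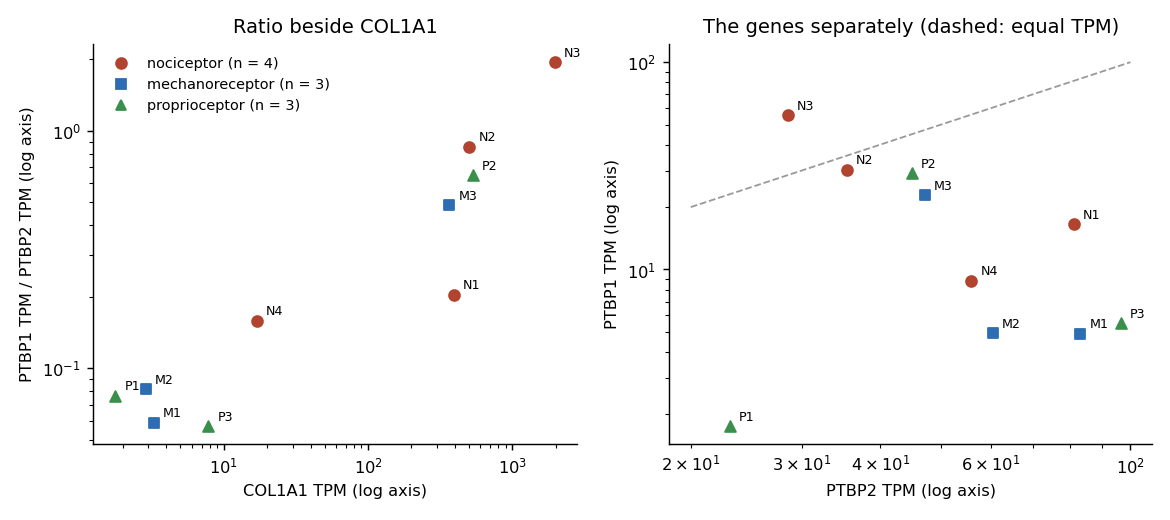
Left, the ratio of PTBP1 to PTBP2 TPM against COL1A1 TPM in the 10 libraries (log axes); right, PTBP1 against PTBP2 TPM, with a dashed line at equal levels. The 5 libraries of low COL1A1 lie at ratios of 0.0570 to 0.158, the 5 of high COL1A1 at 0.204 to 1.94, and only N3 lies above the line of equal levels.

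Between protocols the ratio did not separate. Its log2 value was -1.05 ± 1.72 (SD, n = 4) in the nociceptor, -2.92 ± 1.64 (SD, n = 3) in the mechanoreceptor and -2.82 ± 1.91 (SD, n = 3) in the proprioceptor libraries. The difference from the nociceptor protocol was -1.86 for mechanoreceptor and -1.77 for proprioceptor libraries (exact two-sided permutation tests, p = 0.2 and 0.286, adjusted p = 0.429 for each over 3 comparisons). The proprioceptor and mechanoreceptor protocols differed by 0.09 (exact permutation test, p = 1.00). Leaving out 1 library moved the first between -2.80 (without mechanoreceptor library 3) and -1.19 (without nociceptor library 3), and the second between -2.87 (without proprioceptor library 2) and -1.10 (without nociceptor library 3); without proprioceptor library 1 it was -1.32.

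The 34-nt exon of PTBP2 was included in most transcripts of every library, at 85.6% to 100%. The corresponding PTBP1 exon, through which PTBP1 limits its own level, was included at 88.3% to 100%. In PTBP1 a second alternative exon lies in the linker between RNA-recognition domains (chr19:805492-805569) and its inclusion was 75.5%, 47.0%, 67.6% and 90.3% in nociceptor, 89.5%, 88.7% and 55.1% in mechanoreceptor and 23.7%, 48.0% and 75.1% in proprioceptor libraries. The lowest of these, proprioceptor library 1, rests on 0.764 TPM. Skipped transcripts that are degraded leave little RNA to count, and the matched transcripts held 41.8% to 84.3% of PTBP2 TPM and 71.5% to 94.0% of PTBP1 TPM. Those that span the 34-nt exon held 60.5% of PTBP2 and 70.0% of PTBP1 TPM over the libraries.

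Exons known to differ between neurons and other cells were read in 7 further genes, and those of 5 of them split at the gap in COL1A1. The PKM M2 exon was included at 55.3%, 74.7%, 73.2% and 36.9% in nociceptor, 15.5%, 19.5% and 47.5% in mechanoreceptor and 23.7%, 53.1% and 22.4% in proprioceptor libraries. The 5 libraries of low COL1A1 held 15.5% to 36.9% and the 5 of high COL1A1 47.5% to 74.7%, without overlap. Between protocols, the M2 share was 32.5 points lower in mechanoreceptor and 27.0 points lower in proprioceptor than in nociceptor libraries, with overlap (exact permutation tests, p = 0.114 for both, adjusted p = 0.533 over 42 comparisons of exons).

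The neuronal exon of CLTB was included at 73.3%, 63.1%, 49.4% and 96.6% in nociceptor, 99.4%, 99.3% and 87.8% in mechanoreceptor and 98.8%, 85.4% and 98.9% in proprioceptor libraries. It was nearly complete (96.6% to 99.4%) in the 5 libraries of low COL1A1 and 49.4% to 87.8% in the others. The exon of CLTA measured 53.5%, 40.4%, 33.1% and 75.2%, then 81.5%, 83.8% and 64.1%, then 79.7%, 57.3% and 77.0%, and it also split at the COL1A1 gap, at 75.2% to 83.8% against 33.1% to 64.1%. In both genes the groups of protocols overlapped, because nociceptor library 4 sat with the high libraries. The means of the mechanoreceptor and proprioceptor libraries were 24.9 and 23.7 points above the nociceptor mean for CLTB and 25.9 and 20.8 points for CLTA (exact permutation tests, p = 0.114 in each, adjusted p = 0.533).

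The Kunitz domain exon of APP, the amyloid precursor protein, is known to be skipped in neurons. It lies at chr21:26000015-26000182 on the minus strand (exon 7 of 18), and its inclusion was 46.2%, 56.8%, 59.4% and 12.97% in nociceptor, 8.55%, 12.5% and 32.2% in mechanoreceptor and 17.1%, 35.1% and 11.1% in proprioceptor libraries. Libraries of low COL1A1 held 8.55% to 17.1% and the others 32.2% to 59.4%. The Z exons of AGRN, a target of NOVA that gives agrin its neuronal form, were included at 71.3% to 100% below the gap and 11.1% to 41.2% above it. That estimate is thin, since it rests on 1 transcript with and 1 without both exons, with 2.48 TPM on average and 0.154 TPM in proprioceptor library 1. In all, 7 of the 14 exons measured split without overlap at the COL1A1 gap, of which the 2 AGRN exons share their transcripts. The share over all exons was not computed, so this count has no background to be read against. The seventh exon of the 7 was the RNA-recognition exon of RBFOX3, at 91.2% to 95.4% below the gap and 77.7% to 90.2% above it. The part of mesenchymal or glial RNA in these values was not tested.

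**Figure D5:**
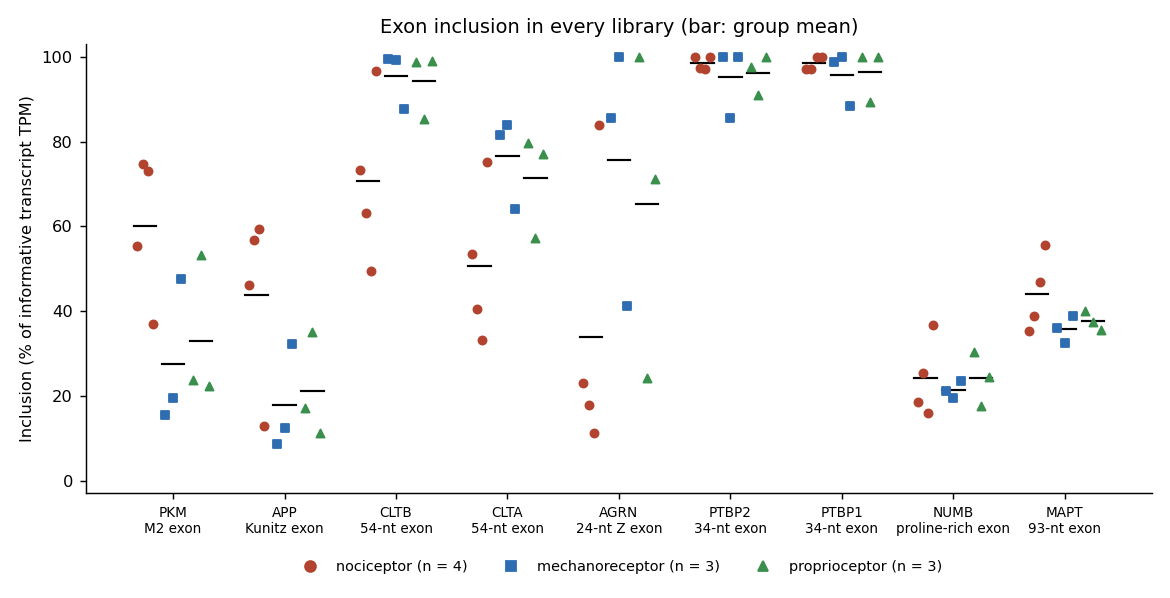
Inclusion of 9 exons as a percent of the TPM of transcripts that span them, 1 point per library, with a bar at the mean of each protocol. In PKM, APP, CLTB, CLTA and AGRN the libraries fall into high and low sets that cut across the protocols, whereas the 34-nt exons of PTBP2 and PTBP1 stay at or above 85.6%.

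Other exons did not split at the gap. The 93-nt exon of MAPT, the microtubule-associated protein tau, was included at 32.4% to 55.5%, and the proline-rich exon of NUMB, an endocytic adaptor and known RBFOX3 target, at 15.9% to 36.7%. None of the 42 comparisons of exons between protocols passed an adjusted p under 0.05. The adjusted p of PKM, CLTA and CLTB, 0.533, was the smallest. With 3 against 3 libraries the exact test cannot go below 0.1.

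The leading transcripts of the other regulators, among those matched to GENCODE V29, were read as shares of each gene's TPM summed over the 10 libraries. The matched transcripts held least of RBFOX2 (38.1%), ELAVL4 (61.3%) and PTBP2 (61.8%). For RBFOX2 and PTBP2 a larger transcript may therefore lie among those not read. PTBP1-203 held 41.0% and PTBP1-201 22.5% of PTBP1, and PTBP1-201 was listed at 0 in nociceptor library 4, mechanoreceptor libraries 1 and 2 and proprioceptor library 3, which are 4 of the 5 libraries of low COL1A1. PTBP2 was divided among PTBP2-201 (19.4%), PTBP2-203 (18.8%) and PTBP2-202 (17.3%). ELAVL3-201 held 72.3% of ELAVL3, ELAVL4-201 41.9% of ELAVL4, and ELAVL2-202, ELAVL2-204 and ELAVL2-206 held 36.1%, 26.8% and 22.2% of ELAVL2. NOVA2-201 held 62.9% of NOVA2 and NOVA1-201 32.2% of NOVA1, while RBFOX3-203 held 41.9% of RBFOX3 and RBFOX2-208 19.9% of RBFOX2.

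Other RNA-binding regulators, from 3 lists that the 10 genes are not part of, were also not called. Of 22 tissue-regulated splicing factors tested, 9 were higher and 13 lower in mechanoreceptor than nociceptor libraries (median log2 fold change -0.07), and 10 and 12 in proprioceptor than nociceptor libraries (-0.09). Among those at a mean of at least 5 TPM, the extremes were QKI, a glial splicing factor, at -2.47 ± 1.45, and RBM38 at -2.19 ± 0.79, both in mechanoreceptor minus nociceptor, and KHDRBS2 at 1.27 ± 0.34 and CELF3 at 1.09 ± 0.46, both in proprioceptor minus nociceptor. QKI split like PTBP1: it measured 86.1 to 212 TPM in the 5 libraries of high COL1A1 and 1.57 to 19.4 TPM in the other 5. Of 17 regulators of mRNA transport and translation, 9 were higher and 8 lower in mechanoreceptor than nociceptor libraries (median 0.01). Among those at a mean of at least 5 TPM, CPEB1, a cytoplasmic polyadenylation factor, was highest at 0.87 ± 0.30, followed by CPEB3 at 0.75 ± 0.45, and IGF2BP3 (-1.05 ± 0.96, proprioceptor minus nociceptor) and IGF2BP2 (-0.97 ± 0.54) were lowest.

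Of 34 general splicing factors tested, 0 were called in any contrast. In mechanoreceptor minus nociceptor 4 had a higher and 30 a lower estimate (median -0.30), and in proprioceptor minus nociceptor 8 and 26 (median -0.17). Over all genes tested 50.1% and 52.2% had a higher estimate, with medians of 0.00 and 0.03. All 12 proliferation genes also had lower estimates in both contrasts (median -3.03 and -1.68), and their part in these values was not tested. SRSF3 (-0.73 ± 0.34) and HNRNPA2B1 (-0.67 ± 0.28) were lowest in mechanoreceptor minus nociceptor, and SRSF9 (0.45 ± 0.36) and SRSF3 (0.41 ± 0.35) highest in proprioceptor minus mechanoreceptor libraries. Estimates for genes of each list share the same libraries and are not independent.

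The genes whose log2(TPM + 1) followed each regulator most closely over the 10 libraries, among 10542 others at a mean of at least 5 TPM, are given as Pearson's r, as a description over libraries that share depth and composition. PTBP1 ran with VPS37B (0.993), IDUA (0.991) and ERBB2 (0.990), and PTBP2 with TES (0.985), RAB33B (0.984) and RAB6A (0.981). RBFOX2 ran with ENO2 (0.962), the neuronal enolase, and GTF2IRD1 (0.953), RBFOX3 with RIMS3 (0.982), C2orf92 (0.975) and WNT10B (0.966), and RBFOX1 with AHCYL2 (0.973), SNRK (0.956) and GNE (0.954). ELAVL2 ran with PRKG1 (0.965), the sensory transcription factor gene POU4F1 (0.964) and MTARC1 (0.960), ELAVL3 with DTNB (0.977), ATP2B3 (0.976) and VSTM2L (0.975), and ELAVL4, less closely, with NDST4 (0.897), C6orf141 (0.886) and GRK4 (0.880). NOVA1 ran with MMP16 (0.913), PNISR (0.912) and FUT11 (0.906), and NOVA2 with MICAL3 (0.954), HUWE1 (0.944) and NPIPA6 (0.943).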

How the data were processed

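Bulk RNA was sequenced in 10 libraries, grouped by the protocol in each title. The submitters' processing notes name kallisto 0.50.1 and the build GRCh38.p14. Estimated counts and TPM values per gene and per transcript were deposited by the authors; how transcripts were summed to genes is not given in the sources used here. Per the labels' protocols the kit was Clontech Ultra Low v4 with NexteraXT; strand was not stated. Kallisto divides reads shared by similar transcripts by estimation, so exon inclusion has an estimation error of unknown size. Libraries held 27891186 to 44541262 counts, and PCR reads are not independent molecules. An entry with no name (0.733% to 1.66% of counts) was left out.

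Estimated counts were rounded to whole numbers and tested with edgeR 4.0.16 in R 4.3.3 (filterByExpr, TMM, quasi-likelihood fit of all 10 libraries, Benjamini-Hochberg adjustment over 16130 genes, common biological coefficient of variation 0.55), with DESeq2 1.42.0 and limma 3.58.1 on log2(TPM + 1) or log2(TPM + 0.1) as alternatives. Ratios, levels beside pan-neuronal genes and exon inclusion were compared by exact two-sided permutation tests. For levels beside pan-neuronal genes, p-values were adjusted over all genes, not over the 30 comparisons of regulators as first laid out. Transcripts were matched to GENCODE V29 by identifier, and an exon needed 2 TPM of informative transcripts on average. The scripts were tested on simulated data.

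The regulators and lists were chosen with earlier results of these data known. The named genes are the 10 regulators, COL1A1, the 2 genes with the largest change in each direction of each list at a mean of at least 5 TPM, 3 genes most like each regulator, transcripts with at least 10 percent of a regulator's TPM, and all exons that passed; marker lists are given by sums and counts. Without the libraries of COL1A1 above 300 TPM was an alternative chosen after seeing the data. The counts over exons and lists also take in a few items that are not reported here.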

Additional observations from a re-analysis of the deposited data

Results flagged for a closer look

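Of 35 values tested in the 4 nociceptor libraries for 1 library that stands apart (Dixon's test), 7 had such a library, and in each it was library 4; chance alone gives about 1 in 20, and the values are not independent. RBFOX2 measured 272 TPM there against 150 to 169 in the other nociceptor libraries. RBFOX3 measured 51.2 TPM against 6.01 to 11.4, NOVA2 3.15 TPM against 0.683 to 0.835, and ELAVL3 8.57 TPM against 2.33 to 2.90. Relative to the pan-neuronal genes, NOVA2 lay at -7.21 on the log2 scale against -8.36 to -8.30. The 24-nt and 33-nt Z exons of AGRN, read from the same transcripts, were included at 84.0% against 11.1% to 23.1%. Library 4 is also the nociceptor library with COL1A1 at 17.0 TPM, where the others had 392 to 1984 TPM, and its summed pan-neuronal TPM was 17273 against 7116 to 9707. The part of these in the values was not tested.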

How the results depend on the processing

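In all 54 alternatives tried for the 3 contrasts, 0 of the 10 regulators were called. Few genes of any kind were. DESeq2 called 0.781% and 0.193% of all genes for mechanoreceptor and proprioceptor minus nociceptor. Every other alternative that kept more than 1 nociceptor library called 0%, so the 0 of 10 is not particular to the regulators. Of 314 alternative fold changes of regulators, 286 kept their direction and 28 reversed; the 98 run for the exons of PKM, CLTA, CLTB, APP and AGRN against the nociceptor protocol, and for the count of exon differences past the threshold, kept theirs. The cause of the reversals was not tested. Same-numbered libraries did not vary together (r from -0.63 to 0.49, 4 of 9 pairs over 0.1); with replicate number as a block, NOVA1 in mechanoreceptor minus nociceptor was 0.060, no regulator was called, and the PTBP1 to PTBP2 log2 ratio differed by -2.40 and -2.30 from the nociceptor protocol. By limma on log2(TPM + 1) and log2(TPM + 0.1), NOVA1 in proprioceptor minus nociceptor was -0.13 and -0.16. Below, each pair of values is mechanoreceptor then proprioceptor minus nociceptor. With the mesenchyme level as a covariate, RBFOX3 was -0.11 and -0.21, ELAVL2 -0.47 and -0.19 and PTBP2 -0.17 and -0.13, while in mechanoreceptor minus nociceptor alone NOVA1 was 0.12, ELAVL3 -0.0058 and PTBP1 0.065. Without the 5 libraries of high COL1A1, RBFOX3 was -0.39 and -0.63, NOVA2 -0.88 and -1.03, ELAVL2 -0.0054 and -0.0078 and ELAVL3 -0.57 and -0.36, and NOVA1 in proprioceptor minus nociceptor was -0.50. Leaving out 1 library at a time gave -0.25 to 0.64 for RBFOX1, -0.15 to 0.35 for NOVA1, -0.093 to 1.21 for NOVA2 and -0.30 to 0.49 for PTBP2 in proprioceptor minus nociceptor, and -0.53 to 0.12 for NOVA1 and -0.017 to 0.47 for PTBP2 in mechanoreceptor minus nociceptor. The difference in the PTBP1 to PTBP2 log2 ratio between proprioceptor and mechanoreceptor protocols was -0.16 from estimated counts, -0.067 without the libraries of high COL1A1, and -1.003 to 1.03 leaving out 1 library. Comparisons beside pan-neuronal genes at an unadjusted p under 0.05 (exact permutation test) numbered 1, 2 with the median of that list in place of its mean, and 0 to 1 leaving out 1 library. A comparison that loses a library has too few left to fall under 0.05, so that count tells nothing about stability. The NOVA1 difference itself, mechanoreceptor minus nociceptor, stayed between -0.78 and -0.53. The coefficient of variation between libraries was 0.55; how far depth limits the tests was not estimated.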
